A study of Mus musculus with 3 samples.

Results

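The 8 genes that make, cut, bind or organise hyaluronan described here were followed through 3 ATAC-seq summit lists from mouse mesenchymal stem cells (MSC), the tissue label of all 3 samples: the hyaluronan synthases Has1, Has2 and Has3, the hyaluronidases Hyal1 and Hyal2, the receptor Cd44, and the hyaluronan-binding matrix genes Tnfaip6 and Vcan. A summit is the 1 bp position of highest signal in a called peak. A summit belonged to one of these genes if the nearest end of a protein-coding gene, within 50 kb, was one of its ends. This gave 113 of the 167038 summits on chromosomes 1 to 19. There were 52 of 67404 at day 7 immobilized, 33 of 47912 at day 7 non-immobilized and 28 of 51722 at day 0. All 8 genes had at least 1 summit in every list. The study concerns heterotopic ossification, in which bone forms in soft tissue, and looked for differences in accessible chromatin. ATAC-seq reads open chromatin through the cuts of a transposase, here by the Omni-ATAC protocol. One library came from cells immobilized and taken at day 7 after injury, 1 from non-immobilized cells at day 7 after injury and 1 from cells before injury at day 0. The sources used here do not give strain, genotype, age, the injury, the way of immobilizing or the isolation of the cells. With 1 library per group no difference has a replicate check, and no test was made. The genes were chosen from an earlier look at these lists, so their counts are a description.

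Hyaluronan is a long, unsulphated sugar chain that synthases in the plasma membrane extrude into the matrix. HYAL2, held at the cell surface, and HYAL1, a lysosomal enzyme, cut it. Mesenchymal cells hold it through CD44 and organise it with versican (Vcan) and with TSG-6, the product of Tnfaip6, which links proteins to the chain. Matrix rich in hyaluronan and versican is known from wounds and from mesenchyme before cartilage forms.

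Each list was cut to its 47912 best-scoring summits, the length of the shortest list, before libraries were compared. Summits widened by 250 bp to each side were merged into regions, and a region counted as called in each library with a summit in it. A rank is given as a percent of the deposited list, with 0% the best score. Lists differ in length, so ranks place a summit within its own list and show no change between libraries. The libraries held 143818952 read pairs at day 7 immobilized, 173029378 at day 7 non-immobilized and 176119937 at day 0, of which 43.4%, 42.0% and 60.2% were duplicates. All 15 mesenchymal progenitor and fibroblast markers had at least 1 region, 57, 66 and 78 regions in that order of libraries, and only Ly6a and Lum had 0 in the non-immobilized one. Markers of other cells moved between libraries. The 11 keratinocyte markers had 45, 13 and 10 regions (1 to 8, 0 to 3 and 0 to 4 per gene), and Krt5, Krt14 and Dsg3 were at 0 in the non-immobilized and day 0 libraries. The 10 endothelial markers had 39, 60 and 24 regions (1 to 8, 2 to 12 and 0 to 7 per gene), with Sox18 and Robo4 at 0 at day 0. The 11 leukocyte markers had 13, 12 and 10, and Adgre1, Lyz2, Itgam and Cd3e were at 0 in all 3 libraries. In such bulk samples a smaller share of cells with an open site and less open chromatin per cell cannot be told apart.

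Summits sat at or near the start of every one of the 6 genes for which RefSeq promoter sequence was at hand. In the next lines 4 of these promoters are shown, those of the synthase Has1, the receptor Cd44 and the matrix genes Tnfaip6 and Vcan. Each is the 250 bases before the start, 5′ to 3′ on the gene's strand (RefSeq, GRCm38.p6, the assembly of mm10), with motif matches in capitals.
Has1 promoter, chr17:17855189-17855438, minus strand: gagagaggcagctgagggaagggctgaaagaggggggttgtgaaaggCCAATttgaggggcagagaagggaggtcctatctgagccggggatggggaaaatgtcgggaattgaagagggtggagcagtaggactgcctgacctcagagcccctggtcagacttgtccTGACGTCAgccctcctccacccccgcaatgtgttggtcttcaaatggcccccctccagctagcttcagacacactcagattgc
Cd44 promoter, chr2:102901666-102901915, minus strand: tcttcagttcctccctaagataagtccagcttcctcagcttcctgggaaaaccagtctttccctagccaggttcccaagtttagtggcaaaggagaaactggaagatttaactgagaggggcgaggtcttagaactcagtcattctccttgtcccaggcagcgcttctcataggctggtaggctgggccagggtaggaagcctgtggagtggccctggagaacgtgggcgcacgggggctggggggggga
Tnfaip6 promoter, chr2:52037863-52038112, plus strand: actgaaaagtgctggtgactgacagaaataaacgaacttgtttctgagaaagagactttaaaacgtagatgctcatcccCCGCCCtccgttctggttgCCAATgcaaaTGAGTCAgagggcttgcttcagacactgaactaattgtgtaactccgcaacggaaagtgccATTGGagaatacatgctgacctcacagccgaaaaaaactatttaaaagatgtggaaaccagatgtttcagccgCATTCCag
Vcan promoter, chr13:89742513-89742762, minus strand: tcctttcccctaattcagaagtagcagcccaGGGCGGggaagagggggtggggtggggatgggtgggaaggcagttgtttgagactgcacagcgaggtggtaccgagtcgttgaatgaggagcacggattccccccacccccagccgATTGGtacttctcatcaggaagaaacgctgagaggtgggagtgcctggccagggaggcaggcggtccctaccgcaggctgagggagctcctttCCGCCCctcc
Both strands were searched for motifs of several kinds of factor. The AP-1 motif, bound by Fos and Jun proteins, was TGANTCA. The NF-kB motif of inflammatory signalling was GGGNNTTCC. The TATA box of core promoters was searched as TATAAA. The CCAAT box was searched by the letters of its name. The E-box, bound by basic helix-loop-helix proteins, was CACGTG. The SP/KLF motif of zinc finger proteins was GGGCGG. The TEAD motif, read by the partners of YAP and TAZ, was GGAATG. The cyclic AMP response element (CRE), TGACGTCA, was added after the sequences were seen.

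The Tnfaip6 promoter held the AP-1 letters at -142 to -136, counted from the start. These letters occurred in 6.75% of 32851 promoters of the same length and in none of the other 5 promoters of these genes. It also held the CCAAT box letters at 2 places and the SP/KLF and TEAD letters at 1 each. The Has1 promoter held the CRE letters at -83 to -76, which 1.55% of promoters hold, and 1 CCAAT box. The Vcan promoter held the SP/KLF letters at 2 places and 1 CCAAT box, letters that 32.7% and 33.8% of promoters hold. No searched letters were found in the 250 bases before Cd44, whose GC content was 56.4%, against a median of 52.4% over all promoters. The Hyal1 promoter held 2 SP/KLF matches that share 1 base, and 1 CCAAT box. The Hyal2 promoter held the NF-kB and TEAD letters, which share 1 base, and 1 SP/KLF match. No TATA box or E-box letters, held by 12.4% and 6.02% of promoters, were found in the 6, and the NF-kB and TEAD letters are held by 4.98% and 12.6%. A match is a description of the letters and not a bound site.

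Summit positions at these starts, in bp from the start with negative values before it, differed among the libraries. At Has1 they were -90, -94 and -154 at day 7 immobilized, day 7 non-immobilized and day 0. These spanned 64 bp, beside a median of 71 bp over shared regions of the 8 genes with 1 summit per library. At Tnfaip6 they were 9, -37 and -42, and at Cd44 -16, 126 and -17. The Cd44 summit of the non-immobilized library thus lay inside the gene and the other two before its start. At Vcan they were 121, 37 and 221, all inside the gene. At Hyal1 they were -82, -92 and -59. At Hyal2 they were -35, -27 and -345, the day 0 summit the farthest of all these. The annotated bodies of Has1 and Hyal2 reach past these listed starts and hold all of their summits given here. Of the 6 genes, 5 thus had a summit within 250 bp of the start in all 3 deposited lists, a state found for 47.4% of 16457 protein-coding genes with a listed start.

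**Figure D1:**
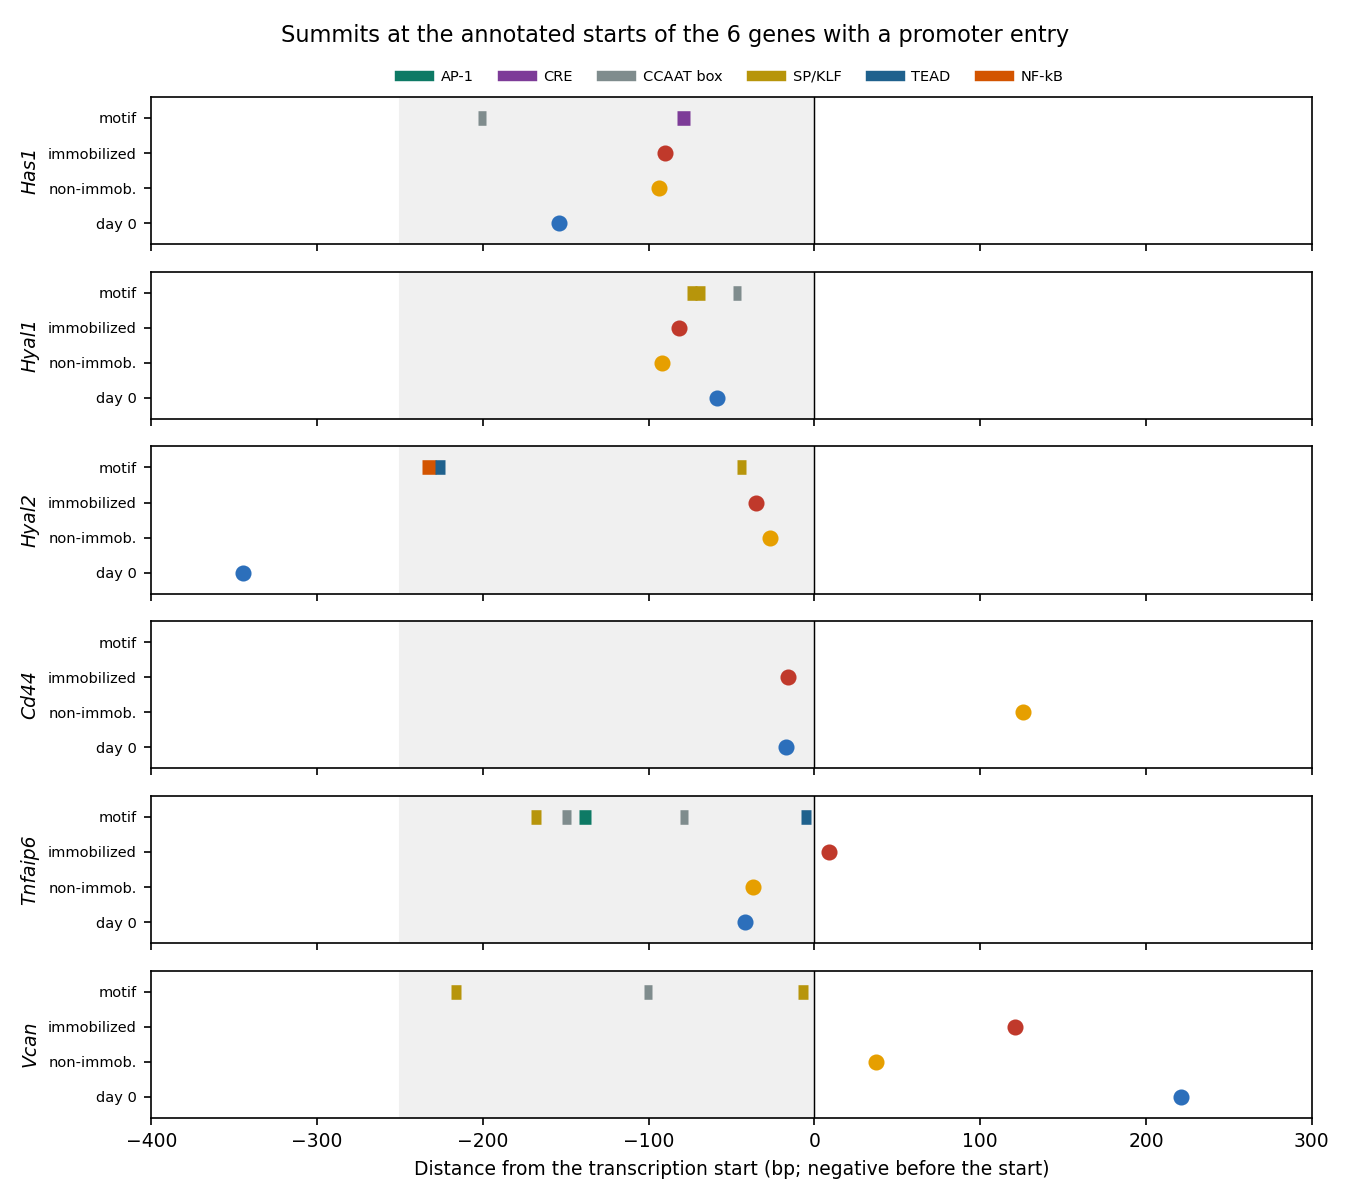
Positions of the best-ranked summit of each library (points, 1 row per library) around the transcription start of the 6 genes with a promoter entry, in bp, with the searched letters as coloured blocks in the 250 bases before the start (grey). At Has1 the day 7 summits are at -90 and -94 and the day 0 summit at -154, and the Vcan summits lie at 37 to 221, inside the gene.

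Of the synthase genes, Has1 had 3 of 4 regions in all 3 libraries, Has2 4 of 9 and Has3 2 of 2. Has1 (chromosome 17, 17833691 to 17855589) had 4, 4 and 3 regions at day 7 immobilized, day 7 non-immobilized and day 0. Its best-ranked region lay 16.9 kb into the gene (summit at 17838262) and ranked 4.32%, 3.78% and 2.88%, the best rank of any region of the 8 genes in each list. That summit was 4.57 kb from an end of Has1 and 4.75 kb from an end of Spaca6. The body of Spaca6, a shorter gene, also holds that summit. With summits assigned to the shortest gene whose body holds them, Has1 had 2, 2 and 1 regions, and this best-ranked region was not among them. The Has1 start region ranked 25.2%, 59.4% and 54.0%. A region 1.61 kb before the start ranked 45.8%, 80.4% and 90.7%. One more, 7.36 kb before the start, ranked 46.4% and 75.4% in the day 7 lists and had no day 0 summit. A further accessible region inside the Has1 body, ranked 25.6% and 47.8% in the day 7 lists and without a day 0 summit, lay nearer to an end of Spaca6 and was not counted. Has1 thus had no region at day 0 that was missing at day 7.

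Has2, the main synthase of mesenchyme and of the developing limb (chromosome 15, 56665627 to 56694546), stands alone: the next protein-coding gene end, that of Slc22a22, was at least 549 kb from each of its regions. It had 7, 6 and 6 regions at day 7 immobilized, day 7 non-immobilized and day 0. Its best region in the day 7 lists lay 2.07 kb inside the higher-coordinate end and ranked 11.7%, 24.0% and 20.1%. The region at that end itself, 128 bp outside it, ranked 90.6%, 73.9% and 84.7%. Over the 10052, 9603 and 9595 listed starts with a summit within 250 bp, the median rank was 9.51%, 12.7% and 11.9%. Has2 has no listed start, so these medians are not a direct counterpart of its end region. The best Has2 region at day 0 lay 31.2 kb beyond the opposite, lower-coordinate end and ranked 17.5%, 28.4% and 17.9%. A neighbour of it, 32.0 kb beyond that end, ranked 78.9% at day 7 immobilized, which left it out of the list of equal length, had no summit at day 7 non-immobilized and ranked 30.2% at day 0. Regions 6.15 and 4.08 kb beyond the lower-coordinate end were called at day 7 immobilized alone and ranked 55.3% and 57.1%.

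Has3, the synthase known for shorter chains (chromosome 8, 106870242 to 106882902), had 2 regions, both called in all 3 libraries. They lay 0.556 and 1.95 kb inside its lower-coordinate end. The nearer one ranked 21.9%, 53.2% and 39.8% at day 7 immobilized, day 7 non-immobilized and day 0, and the farther one 29.2%, 54.9% and 81.7%. Has3 showed no gain or loss of a region between libraries.

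The hyaluronidase genes lie side by side on chromosome 9 in a dense stretch of genes, so the nearest-end rule leaves each a short reach. Hyal1 (107576950 to 107581699) had 1 region, at its start, which ranked 15.6%, 22.2% and 14.7% at day 7 immobilized, day 7 non-immobilized and day 0. One more summit of the immobilized list, 957 bp before the start, ranked 99.4% and fell outside the equal-length list. Its start region was thus called in all 3 libraries. Summits inside its body, 1 in each list, lay nearer to Naa80 and were not counted. Hyal2 (107567873 to 107572778) had a start region that ranked 21.7%, 28.9% and 27.3%. Its second region, 2.15 kb before the listed start, was 860 bp from an end of Hyal2 and 905 bp from an end of Tusc2. This region ranked 63.3% and 46.8% in the day 7 lists and had no day 0 summit.

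Cd44, which encodes the main cell-surface receptor for hyaluronan (chromosome 2, 102811141 to 102901669), had the most regions and differed most in number between libraries. It had 13 regions at day 7 immobilized, 11 at day 7 non-immobilized and 7 at day 0, out of 15 in all. Of 20665 protein-coding genes, 205 (0.992%) had at least 15 regions. The nearest-end rule gives a long reach to Cd44, a gene of 90529 bp, and the part of that reach in the count was not tested. All 7 day 0 regions were called in both day 7 libraries as well. The other 8 were called at day 7 and not at day 0, 2 in both day 7 libraries, 4 at day 7 immobilized alone and 2 at day 7 non-immobilized alone. Over the 51407 regions near any gene by the same rule, 29.6% were called at day 7 and not at day 0, and 12.2% at day 0 alone. In lists cut to 23956 summits, Cd44 had 4, 5 and 4 regions, 2 called at day 7 and not at day 0 and 1 at day 0 alone, counts too small to read a difference from.

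The strongest Cd44 region shared by the day 7 lists and missing at day 0 lay inside the gene, 28.2 kb from the start (chromosome 2, 102873164 to 102873673). It ranked 25.4% in the immobilized list and 33.6% in the non-immobilized list, with summits 9 bp apart, and the whole deposited day 0 list had no summit there. Among 18994 regions in the better 50% of both day 7 lists, 873 (4.6%) had no day 0 summit. Of the 18994, 13 were near the 8 genes, and this region was the only 1 of the 13 without a day 0 summit. The other region called in both day 7 libraries alone, 6.32 kb into the gene by its best-ranked summit, ranked 68.0% and 63.1%.

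Regions of Cd44 called at day 7 immobilized alone lay at both ends of the locus and inside it. One lay 5.63 kb beyond the far end of the gene (summit at 102805512) and ranked 43.4%, the only region of the 8 genes within the better 50% of that list that had no summit in either other deposited list. Of 27623 regions in the better 50% of the immobilized list, 7.06% had none. The others lay 38.9 kb into the gene (59.0%), and 43.8 and 47.0 kb before the start (67.1% and 55.6%). The regions called at day 7 non-immobilized alone lay 51.4 and 27.6 kb into the gene and ranked 68.8% and 92.2%.

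The Cd44 regions called in all 3 libraries included the start region, which ranked 16.6%, 18.6% and 18.8% at day 7 immobilized, day 7 non-immobilized and day 0. A region 35.4 kb before the start ranked 25.1%, 27.2% and 16.2%, the best Cd44 rank at day 0. Another, 15.2 kb before the start, ranked 42.5%, 47.8% and 44.8%. A region 42.5 kb before the start ranked 26.6%, 41.4% and 69.5%. Inside the gene, regions 81.1, 73.0 and 19.3 kb from the start ranked 40.3%, 80.5% and 38.3%, then 66.1%, 67.9% and 82.7%, then 47.4%, 61.7% and 90.6%. Of the 15 regions, 8 lay inside the gene body, 6 before the start and 1 beyond the far end, and no other gene end was within 14.7 kb of any. Keratinocytes and leukocytes also express CD44. The keratinocyte markers had 45, 13 and 10 regions and the leukocyte markers 13, 12 and 10, beside the 13, 11 and 7 of Cd44. The endothelial markers had 39, 60 and 24 and the mesenchymal progenitor and fibroblast markers 57, 66 and 78. The part of any of these cells in the Cd44 counts was not tested.

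**Figure D2:**
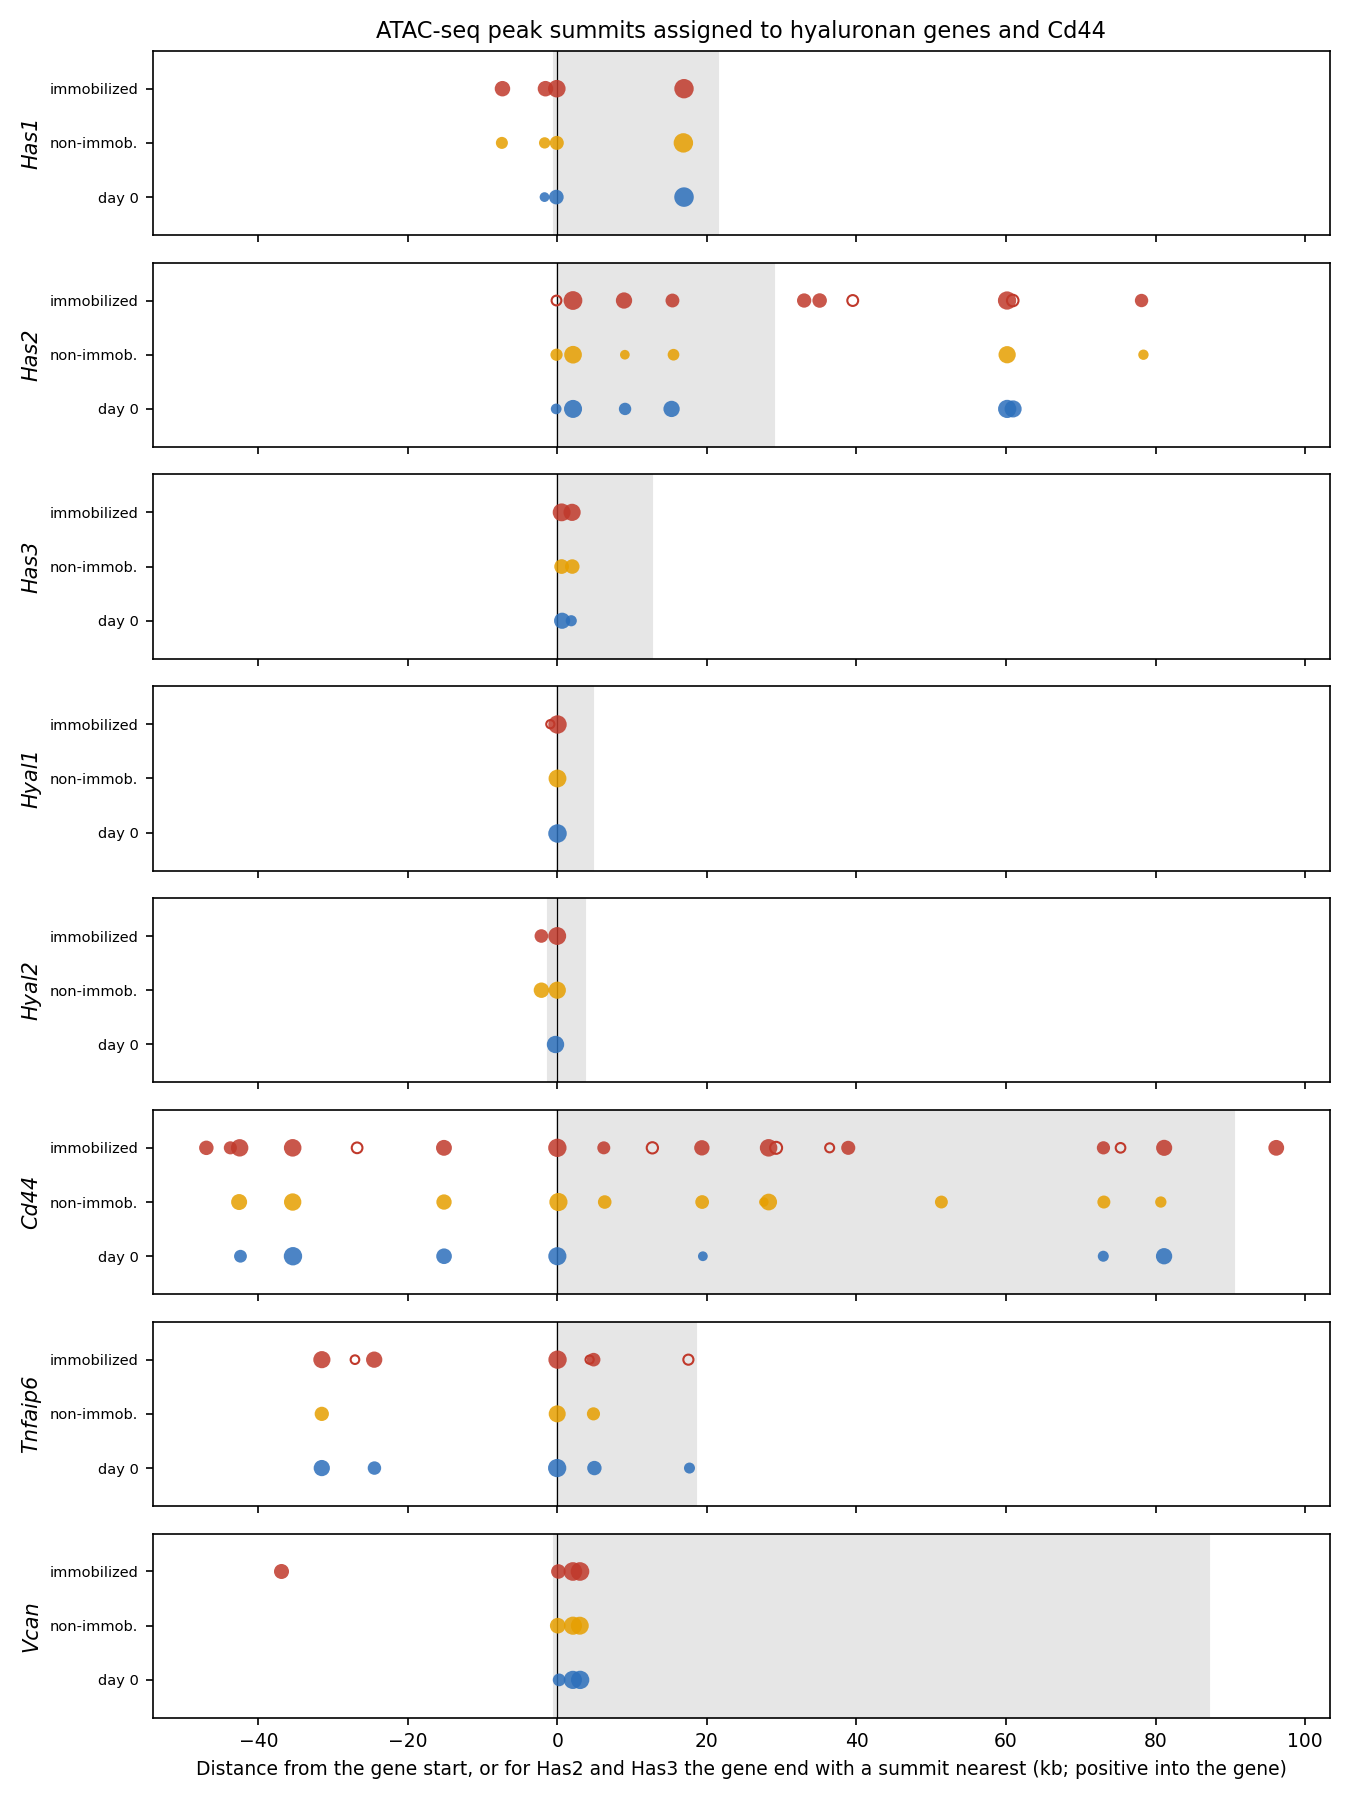
Best-ranked summit of each library in each region, by distance in kb from the gene start (from the gene end nearest a summit for Has2 and Has3), with gene bodies in grey and larger points for better ranks. Open points are summits left out when lists were cut to 47912. Cd44 carries 13, 11 and 7 filled points at day 7 immobilized, day 7 non-immobilized and day 0, while all Vcan points but 1 gather near its start.

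Tnfaip6, which encodes the secreted protein TSG-6 (chromosome 2, 52038113 to 52056681), had 4, 3 and 5 regions at day 7 immobilized, day 7 non-immobilized and day 0. In lists cut to the length of the shortest, it was the only one of the 8 genes with fewer regions in both day 7 libraries than at day 0. This did not hold in lists cut to 23956 summits. There Tnfaip6 had 2, 1 and 2 regions, while Has2 had 2, 2 and 4 and thus fewer in both day 7 libraries. The Tnfaip6 start region ranked 16.7%, 31.1% and 17.5%, and a region 31.5 kb before the start ranked 29.5%, 57.4% and 39.0%. A region 24.5 kb before the start ranked 38.5% at day 7 immobilized and 64.2% at day 0 and had no summit at day 7 non-immobilized. The region 17.7 kb from the start, near the far end, ranked 82.7% at day 0. The immobilized list held a summit there at 88.5%, past the 71.1% at which that list was cut. Regions 27.1 kb before and 4.30 kb after the start were also left out by the cut, at 97.1% and 99.2%, and had a summit in the immobilized list alone. With these 3 regions, Tnfaip6 had 7, 3 and 5 regions in the lists as deposited.

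Vcan, which encodes the large proteoglycan versican (chromosome 13, 89655309 to 89743027), had 4, 3 and 3 regions at day 7 immobilized, day 7 non-immobilized and day 0. The 3 shared ones sat in the first stretch of a gene of 87719 bp. Those 2.06 and 3.01 kb into the gene ranked 13.1%, 18.8% and 18.3%, and 13.3%, 20.8% and 16.8%. The start region ranked lower, 54.7%, 44.5% and 70.1%. At Vcan, as at the higher-coordinate end of Has2, the better ranks were thus inside the gene and not at its end. The remaining region, 36.9 kb before the start, was called at day 7 immobilized alone at 50.6%.

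**Figure D3:**
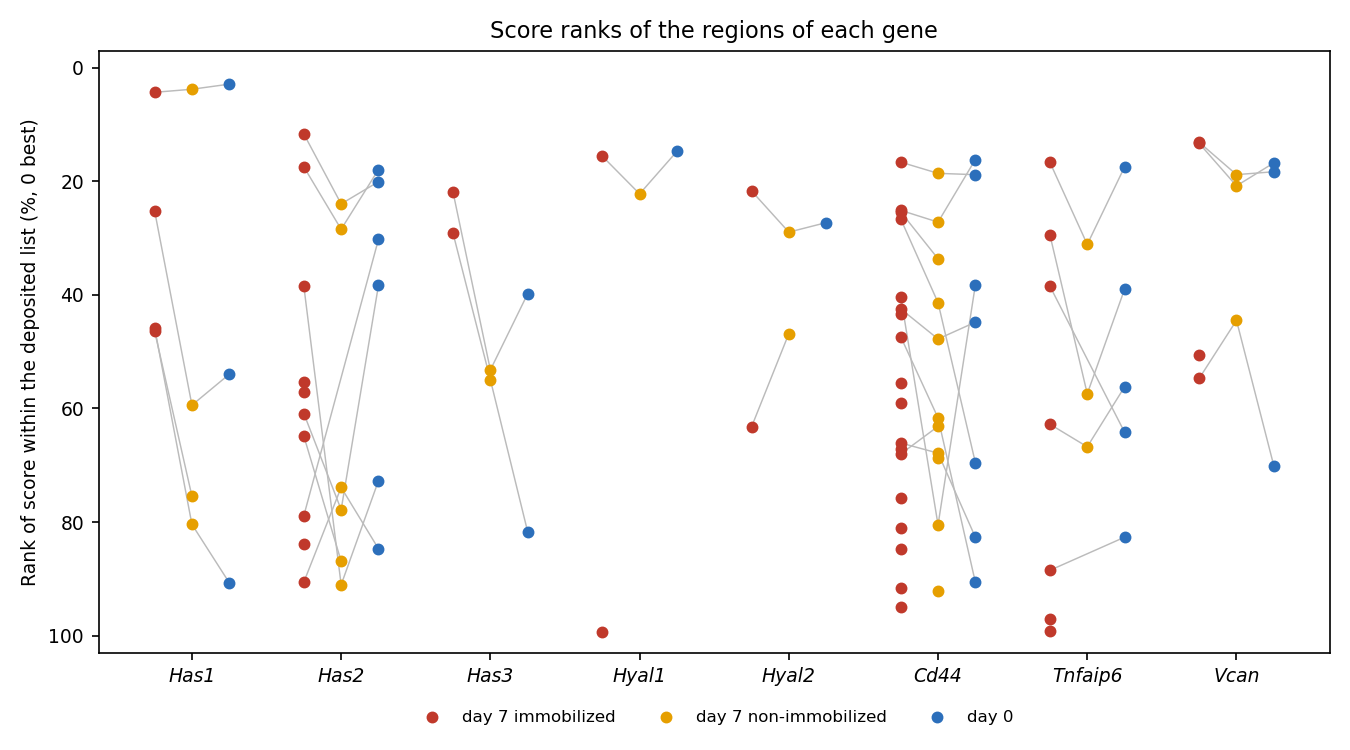
Rank of the best summit of each region within its deposited list (vertical axis, 0% best, reversed) for each gene, with day 7 immobilized, day 7 non-immobilized and day 0 from left to right and grey lines joining 1 region across libraries. Ranks come from lists of different length and are not read as change. By the nearest-end rule Has1 holds the best ranks (4.32%, 3.78% and 2.88%), at a region almost as near to an end of Spaca6, whose body also holds it. Several regions of Cd44 have an immobilized point alone.

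Over the 8 genes, 42 regions were called. Of these, 24 (57.1%, exact binomial interval 41.0 to 72.3) were called in all 3 libraries, against 48.4% of the 51407 regions near any gene. The intervals cover counting error only. Called at day 7 and not at day 0 were 14 (33.3%, 19.6 to 49.5), against 29.6% of all regions, and called at day 0 alone were 2 (4.76%, 0.582 to 16.2), against 12.2%. Without Cd44, 17 of 27 (63.0%) were called in all 3 and 6 (22.2%) at day 7 and not at day 0. The summits of the 8 genes had median ranks of 55.0%, 54.9% and 39.4% at day 7 immobilized, day 7 non-immobilized and day 0, against 46.1%, 45.6% and 45.3% for all summits within that distance of a gene. The intervals of these medians, taken from the sorted ranks, were 40.3 to 63.3, 33.6 to 67.9 and 20.1 to 69.5. Each covered the median over all genes. In lists of equal length the immobilized median was 41.4%, lower by construction. Within 1 kb of a gene end lay 9 regions of the 8 genes (21.4%), against 27.1% of all regions. In shared regions with 1 summit per library, the summits of the 3 libraries spanned a median of 71 bp (22 regions, 11 to 260 bp), and 40 bp over all 23263 such regions.

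**Figure D4:**
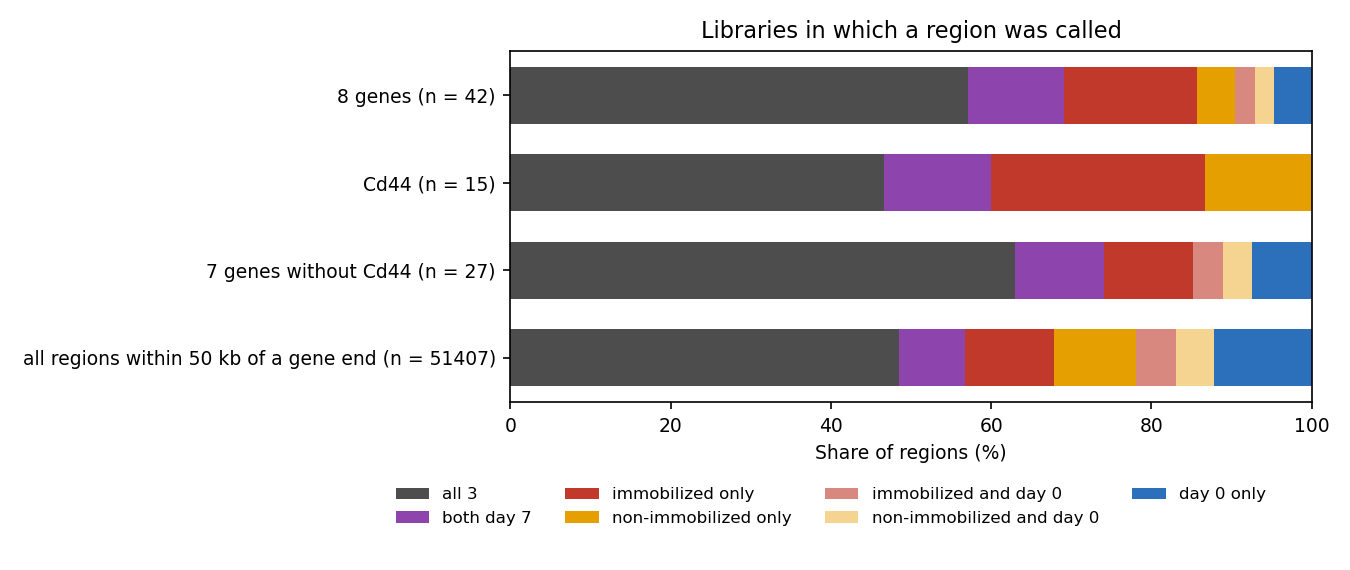
Share of regions (horizontal axis, %) by the libraries in which they were called, for the 8 genes, Cd44 alone, the 7 genes without Cd44 and the regions near any gene. All 3 libraries share 57.1% of the regions of the 8 genes and 48.4% of all regions, and the Cd44 bar has no part called at day 0 alone.

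The comparison of the day 7 libraries asked how immobilization differed from no immobilization. Of 40 regions of the 8 genes called in either, 8 (20%) were called only at day 7 immobilized, 3 (7.5%) only at day 7 non-immobilized and 29 (72.5%) in both. Over all regions these shares were 18.3%, 17.1% and 64.6%. The 8 were 4 of Cd44, 2 of Has2 and 1 each of Tnfaip6 and Vcan, and the 3 were 2 of Cd44 and 1 of Has2. The 1 of Has2 was its end region, which the deposited immobilized list held at 90.6%. With summits assigned to the gene whose body holds them, the counts turned to 1 and 2, with 19 in both.

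The comparison of the immobilized library with day 0 gave 12 regions (30.0%) only at day 7 immobilized, 3 (7.5%) only at day 0 and 25 (62.5%) in both, and all regions gave 21.6%, 18.9% and 59.5%. The 12 were 6 of Cd44, 3 of Has2 and 1 each of Has1, Hyal2 and Vcan. The 3 were 2 of Has2 and 1 of Tnfaip6, and the deposited immobilized list held a summit at each, at 78.9%, 90.6% and 88.5%. All 28 day 0 regions thus had a summit in the deposited immobilized list, where 17.2% of all 38417 day 0 regions had none. In the other direction 21 of 49 immobilized regions had no day 0 summit, against 36.2% of all. In lists cut to 23956 summits the counts were 4 and 4, with 12 in both.

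The comparison of the non-immobilized library with day 0 gave 7 regions (20%) only at day 7 non-immobilized, 3 (8.57%) only at day 0 and 25 (71.4%) in both, and all regions gave 20.8%, 19.3% and 59.9%. The 7 were 4 of Cd44 and 1 each of Has1, Has2 and Hyal2. The 3 were 2 of Tnfaip6 and 1 of Has2. Has3, Hyal1 and Vcan had the same regions in both libraries. Each library enters 2 of the 3 comparisons, so their counts are not independent. Without Cd44 there were 3 and 3.

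Strong regions, those in the better 50% of a list, seldom lacked a summit in another deposited list, over all genes as at these 8. Of 24 strong immobilized regions of the 8 genes, 2 had no non-immobilized summit (1 of Cd44 and 1 of Tnfaip6). The share over all strong immobilized regions was 10.9%. No day 0 summit was found at 3 of the 24 (2 of Cd44 and 1 of Has1), against 14.6%. Of 15 strong non-immobilized regions, 0 had no immobilized summit, against 2.36%, and 0 lacked both others, against 1.37%. No day 0 summit was found at 2 of the 15 (1 of Cd44 and 1 of Hyal2), against 8.23%. Of 16 strong day 0 regions, 0 had no immobilized summit, against 3.49%, and 1, of Has2, had no non-immobilized summit, against 6.47%. None lacked both others, against 2.06% of all strong day 0 regions. These counts are too few to be read as a difference from the share over all genes. Without the limit on strength, 19 of 49 immobilized regions had no non-immobilized summit, against 34.5%, and 2 of 32 non-immobilized regions, both of Cd44, had no immobilized summit, against 11.3%. No day 0 summit was found at 7 of the 32, against 23.6%, and 3 of 28 day 0 regions had no non-immobilized summit, against 26.9%.

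**Figure D5:**
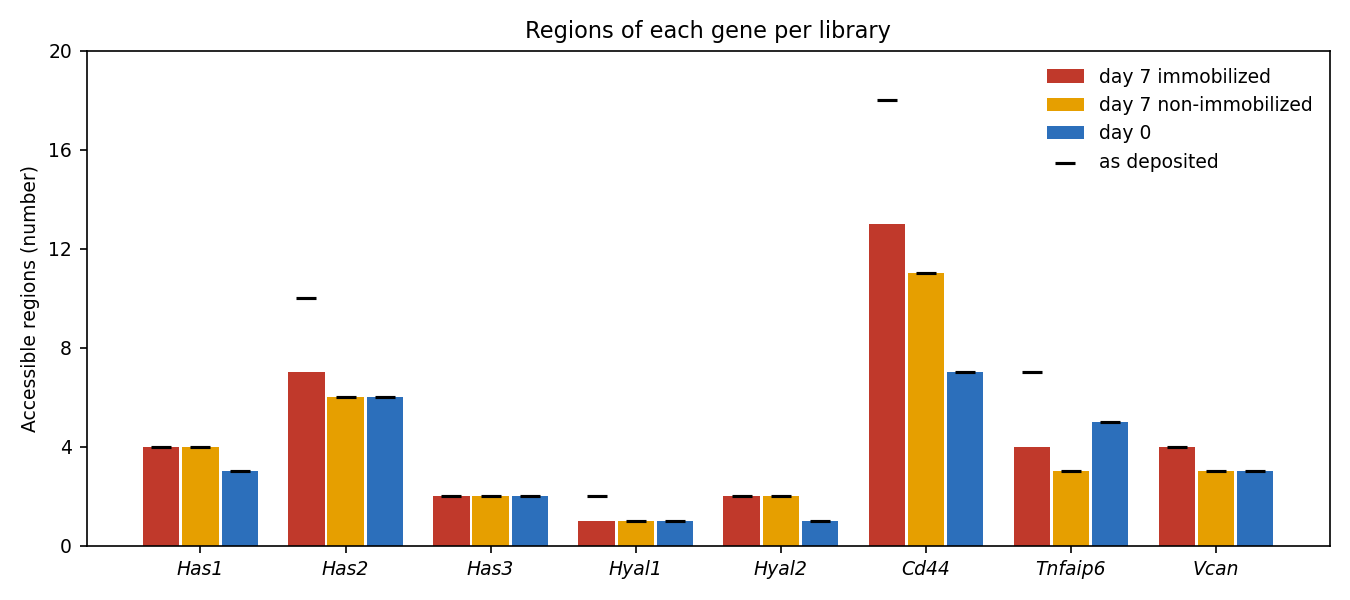
Number of regions of each gene (vertical axis) at day 7 immobilized, day 7 non-immobilized and day 0 (bars, lists of equal length), with dashes for the lists as deposited. Cd44 has 13, 11 and 7 regions in lists of equal length and 18, 11 and 7 in the lists as deposited, and Tnfaip6 has 4, 3 and 5.

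Of 51 further genes of hyaluronan metabolism and binding, listed by role and chosen with results of these data known, 43 had regions, 200 in all. Of those called in the day 7 libraries, 33 were immobilized alone, 28 non-immobilized alone and 117 both (65.7%, against 64.6% of all regions). Day 7 immobilized and day 0 differed by 44 and 34, with 106 in both (57.6%, against 59.5%). Day 7 non-immobilized and day 0 differed by 35 and 30, with 110 in both (62.9%, against 59.9%). These shares lay near those over all genes. Among genes that break hyaluronan down (7 of 10 with regions, which numbered 26, 25 and 18 at day 7 immobilized, day 7 non-immobilized and day 0), Cemip2, a cell-surface hyaluronidase, had 15, 14 and 9. Among other receptors (6 of 7, 20, 15 and 14 regions), Stab2, a clearance receptor, had 6, 6 and 6, Tlr2 had 5, 5 and 3, Tlr4 had 4, 2 and 2 and Layn, the receptor layilin, had 4, 1 and 2. Matrix partners (10 of 14) had 22, 25 and 28 regions, of which 11, 13 and 17 were at Itih5, an inter-alpha-trypsin inhibitor heavy chain. Ptx3, a partner of TSG-6, had 5, 5 and 3. Versican-cleaving proteases (6 of 6) had 28, 31 and 33 regions, Adamts9 6, 6 and 7 of them, Adamts5 4, 7 and 7, Adamts1 6, 5 and 6 and Adamts20 4, 4 and 5. Genes for precursor sugars (7 of 7) had 23, 22 and 23, with 8, 11 and 10 at Gfpt2, which starts the hexosamine pathway. Partners of CD44 (7 of 7) had 31, 27 and 24, and Ezr, which encodes ezrin, a linker of membrane proteins to actin, had 9, 6 and 3, Mmp14 had 7, 6 and 5, Ank3 had 5, 5 and 5 and Nf2 had 4, 4 and 5.

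By counts of regions in the 7 possible sets of libraries, the genes most like Cd44 were Ube2v1, Atxn1, Map3k20 and Azin1, each with a summed absolute difference of 3, and Irak2 with 4. The likeness was taken over 3 libraries. Ube2v1 had 7 regions in all 3 libraries, 1 in both day 7 libraries, 2 at day 7 immobilized alone and 2 at day 7 non-immobilized alone. Like Cd44, none of the 5 had a region at day 0 alone, a count that was itself part of the likeness.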

How the data were processed

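The Omni-ATAC protocol was used for all 3 libraries, per the labels' protocols. Per the submitters' processing notes, which list no parameters, the build was mm10 and the tools were MACS2 2.1.2, Bowtie2 2.3.4.1, bedtools 2.28.0, SAMtools 1.2, edgeR 3.26.5, Picard, cutadapt, Trim Galore and FastQC. Transposase shift, read filters and peak cutoff: not given in the sources used here. Each deposited list gives the 1 bp summits of 1 library with the authors' score, taken from its layout to be a −log10 p or q value and used only for ranks within a list. The deposited run statistics hold reads as counts, duplication as a fraction and alignment as a percent (92.5%, 89.9% and 90.9% at day 7 immobilized, day 7 non-immobilized and day 0).

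Gene ends came from RefSeq (GRCm38.p6), and strand and starts from its promoter table, which holds 6 of the 8 genes. Exons were not used here. A missing summit means that none passed, not closed chromatin. Equal lengths left out 19492 immobilized and 3810 day 0 summits. Coordinates count from 1. By rule the text named, for each gene, the region nearest its start, the best-ranked ones and those of 1 library alone in the better 50%, up to 4 genes per pathway role by regions, and the 5 genes most like Cd44. Other regions were named after their values were seen. Members, lists and motifs were chosen with earlier results of these data known. Region building was tested on simulated data. Alternatives were lists as deposited or cut to 23956 summits, window widths of 100 and 500 bp to each side, distances of 10 and 100 kb, gene bodies, transcription starts and leaving out Cd44. Summit counts and ranks in lists of equal length were added after seeing the data. Intervals of shares are exact (Clopper-Pearson, 95%), and those of medians come from the sorted ranks. Software was matplotlib 3.10.9, scipy 1.17.1, pandas 2.3.3, numpy 2.4.6 and Python 3.11.15.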

Additional observations from a re-analysis of the deposited data

How the results depend on the processing

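No paired analysis was possible because each group has 1 library. With the lists as deposited, regions called only at day 7 immobilized made up 100% of the one-library regions of the immobilized and day 0 pair (21 and 0), against 80% as reported. In lists cut to 23956 summits that share was 50% (4 and 4), the 8 genes had 22 regions, 16, 15 and 16 summits at day 7 immobilized, day 7 non-immobilized and day 0, and median ranks of 19.6%, 28.4% and 19.4%, lower by construction. Within 10 kb there were 28, 21 and 18 summits and 24 regions, 37.5% of them within 1 kb of a gene end. In gene bodies there were 27 immobilized and 16 day 0 summits and 23 regions, and the immobilized share against non-immobilized was 33.3% (1 and 2), against 72.7% as reported. Without Cd44 there were 31 immobilized summits and 27 regions. The other values over all 8 genes stayed within 1.5 times the reported count or within its interval. No replicate could be left out. The Cd44 counts at day 7 immobilized ranged from 4 to 18, at day 7 non-immobilized from 3 to 13 and at day 0 from 2 to 8. The lowest deposited scores were 1.78, 1.33 and 1.42 in that order of libraries, and the part of sequencing depth in missing summits was not tested. The Cd44 count at day 0 alone was 1 in lists cut to 23956 summits and 0 in every other setting run.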

Other observations

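Beyond 50 kb, 6 more regions had Has2 as their nearest gene, out to 321 kb, with 4 called at day 7 immobilized, 3 at day 7 non-immobilized and 5 at day 0. Of these, 3 of 6 were called in all 3 libraries, against 32.0% of the 15475 regions 50 to 500 kb from their nearest gene, a count too small to read a difference from. The nearest, 70.8 kb away, ranked 19.3%, 20.7% and 30.4% at day 7 immobilized, day 7 non-immobilized and day 0. The nearest regions outside the 50 kb limit were 2 of Cd44, at 55.3 and 57.8 kb, while the farthest inside it was that of Has2 at 49.2 kb. None of the other 6 genes had such a region out to 500 kb.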
